A study of Marchantia polymorpha with 6 samples.

Results

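The 194 genes described here are the most abundant transcripts of the wild-type thallus of Marchantia polymorpha that stayed within a 2-fold change in an Mpbes1 mutant. They were chosen from a table of 19287 gene models. The 200 gene models with the highest mean level in wild type were taken, and 6 whose mean differed 2-fold or more between genotypes were left out. Levels are CPM, counts of a gene per 10 to the power of 6 counts in its library, and ranks run from 1 for the highest mean CPM. The thallus is the flat, haploid, photosynthetic body of this liverwort. The wild type was the accession Tak-1, and the mutant, made with CRISPR/Cas9, was altered in the gene for BES1, a transcription factor of a family that acts in brassinosteroid signalling in flowering plants. Thalli with their apical notches were taken from 3 plants of each genotype, each a separate biological replicate. All were 30 days old and untreated, and grew under the same light and temperature on the same solid medium. The labels do not say how many mutant lines were used, nor what the mutated sequence is, and the level of the targeted gene was not analysed here.

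In green plant tissue a small set of nuclear genes supplies much of the messenger RNA. It is known to include genes for chlorophyll-binding proteins, the small subunit of Rubisco, ribosomal proteins and translation factors. Their RNAs are typically stable and made in every photosynthetic cell, and because they take a large share of the reads, a modest change in them moves the measured share of every other gene. Of the 19287 identifiers, 0 occurred in the only gene table at hand, which belongs to another assembly, so no names or sequences were attached. The genes are therefore named by rank and by position on the scaffolds of the deposited table, with no role given and no list of pathway genes filled. The labelled tissue could not be checked against marker genes for the same reason.

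The 6 libraries held 11597664 to 17741253 counts each, and libraries of a genotype differed by more than sampling noise. A member had at least 4257 counts in every library, so counting error was at most 1.53% of a value and the spread between plants set the precision. The 1.53% covers counting error only, while values after ± are an SD over plants or an SE of the fit. All 194 members passed the filter on low counts, among 12313 genes tested.

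The members' share of all counts was 27.55%, 27.05% and 28.24% in the 3 Tak-1 libraries, and 26.77%, 27.53% and 26.6% in the 3 Mpbes1 libraries. The means were 27.6% ± 0.60 and 27.0% ± 0.50 (SD, n = 3), and the ranges of the genotypes overlapped. With the 6 left-out genes added back, the 200 genes took 27.93% to 29.17% in Tak-1 and 26.86% to 27.81% in Mpbes1, ranges that did not overlap. The level in Tak-1 and the limit on the change chose the members, so both differences are descriptions and were not tested. In whole thalli, fewer cells of a type and less RNA per cell cannot be told apart.

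Few genes at the very top carried much of this share. Alone, the gene of rank 1 took 1.01% ± 0.025 of a Tak-1 library and 0.775% ± 0.027 of a Mpbes1 library, and the first 10 members took 5.67% ± 0.11 and 5.15% ± 0.12 (SD, n = 3). A library's own 200 highest genes held 28.5% ± 0.63 of its counts in Tak-1 and 27.8% ± 0.51 in Mpbes1. To reach 50% of a library it took 839 ± 41.6 genes in Tak-1 and 881 ± 23.6 in Mpbes1, with ranges of 796 to 879 and 854 to 898 that overlapped. Within the list, levels in Tak-1 ran from 636 to 10133 CPM, a 15.9-fold range, with a median of 990.1 CPM against 31.3 CPM over all genes tested.

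**Figure D1:**
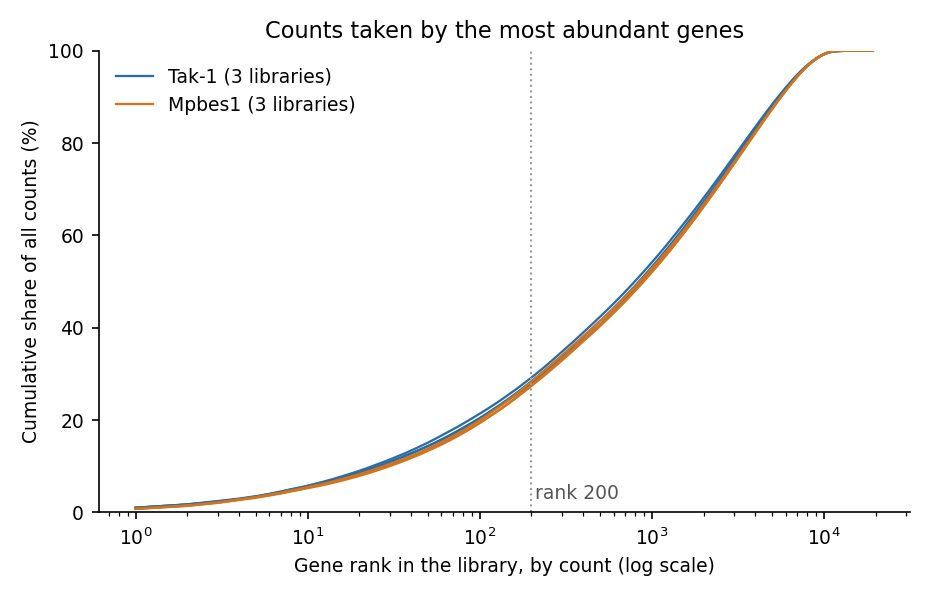
Cumulative share of all counts (vertical axis, %) taken by genes in order of their count in each library (horizontal axis, log scale), with 1 line per library, blue for Tak-1 and orange for Mpbes1. The 6 lines lie close together, and at rank 200 they have reached 27.4% to 29.2% of the counts.

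The first 10 members were 10 genes on 8 scaffolds, and their levels differed between genotypes by less than 2-fold, as the choice of members requires. The gene of rank 1 lies on the minus strand of scaffold_11 from 699441 to 700723 and has 3 exon blocks, which are exons of all isoforms merged where they overlap. Per plant it had 10060.2, 10415 and 9926 CPM in wild type and 7592, 8062 and 7583 CPM in the mutant. Every mutant plant was below every wild-type plant, and yet this gene was first in both genotypes. The genes of rank 2 (scaffold_22, 1196577 to 1199737) and rank 3 (scaffold_68, 633009 to 634201) changed places. The former had 6660.3, 6823 and 7621 CPM in wild type and 6529, 6756 and 6859 CPM in the mutant. The latter had 6939, 6198 and 6999 CPM in wild type and 6489, 6910.1 and 7033 CPM in the mutant. For both, the genotypes overlapped.

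Among the first 10, the gene of rank 9 had the largest difference. It lies on the plus strand of scaffold_68 from 358021 to 364324, with 14 exon blocks and 3937 bases of exon. Its levels were 4269, 4745 and 3540.1 CPM in wild type and 2247, 2199.6 and 2273 CPM in the mutant, and it went to rank 22. The plants of Tak-1 were spread widely and those of Mpbes1 narrowly, and the groups did not overlap. The gene of rank 6, on the minus strand of scaffold_24 from 1596998 to 1599451, was the only one of the first 10 with every mutant plant above every wild-type plant. It had 5432, 4977 and 4955 CPM in wild type and 6202, 6435 and 6212 CPM in the mutant.

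Among the other genes of the first 10, those of rank 4, 5 and 10 were also lower in every mutant plant. The gene of rank 4 (scaffold_114, 572553 to 573943) had 5194 ± 156 CPM in wild type and 4427 ± 122 CPM in the mutant (SD, n = 3). Ranks 5 and 7 are neighbours on scaffold_119, transcribed away from each other, from 283165 to 284442 and from 276627 to 278214. Rank 5 had 5302, 4662 and 5424 CPM in wild type and 4225, 4625 and 4345 CPM in the mutant, the groups lying close but apart. Rank 7 had 5169, 4602 and 5087 CPM in wild type and 4823, 5097 and 4821 CPM in the mutant, with overlap. The second Tak-1 plant was lowest in its group for both of these neighbours. Rank 8 (scaffold_79, 406160 to 411223, 8 exon blocks) had 4555 ± 382 and 5059 ± 118 CPM (SD, n = 3) and overlapped as well. Of the 10, 8 were also among the first 10 of Mpbes1.

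**Figure D2:**
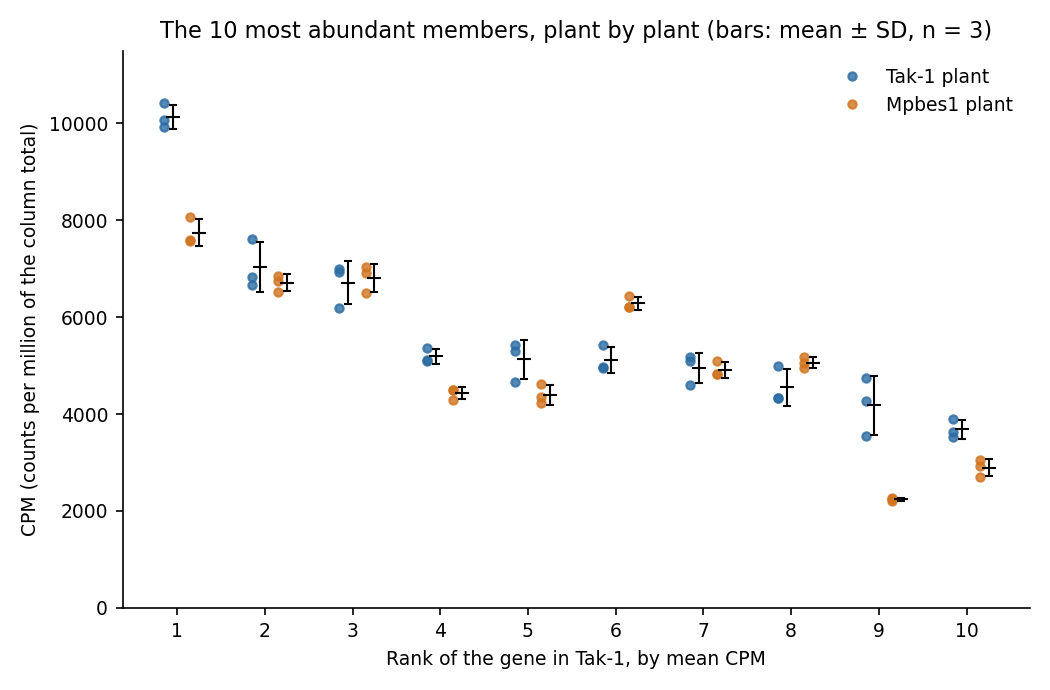
CPM (vertical axis) of the 10 most abundant members by their rank in Tak-1 (horizontal axis), with 1 point per plant, blue for Tak-1 and orange for Mpbes1, and bars for the mean ± SD (n = 3). The genes of rank 1, 4, 5, 9 and 10 were lower in all Mpbes1 plants, the gene of rank 6 was higher in all of them, and the other 4 overlapped.

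Levels per length gave a different order. Raw CPM counts more reads from a longer transcript, so levels of different genes are compared here as CPM per kb of exon. On that scale the 194 members ran from 112 to 11136 CPM per kb in Tak-1, with a median of 676 against 12.5 over all genes tested. First per kb, too, was the gene of rank 1. The second highest per kb was the gene of rank 51, a model of 1 exon block and 201 bases on scaffold_4038 from 1772 to 1972, at 7533 CPM per kb in Tak-1. It had 1479, 1485 and 1579 CPM in wild type and 1829, 1446 and 1356 CPM in the mutant, so that the first mutant plant lay above all wild-type plants and the other mutant plants below them. At the other end, the gene of rank 114 (scaffold_2, 3323073 to 3336110), with 22 exon blocks and 8198 bases of exon the longest member, had the lowest level per kb. Of the members, 146 (75.3%) were among the 200 genes highest per kb, where they made up 73.0%, and 185 were within the first 400.

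The abundant genes were shorter than the genes tested. Their median exon length was 1636.5 bases, against 2394 over all 12313 genes tested and 1927 over all 19287 gene models. The median span from the first to the last exon base was 2182.5 bases, against 3869 for genes tested and 2880 for all models. The median sum of introns was 493 bases, against 1320 and 701. The gaps were thus smaller against all models. They had a median of 3 exon blocks, against 5 for genes tested but also 3 over all 19287 gene models, weakly expressed and silent ones included. Up to 3 blocks were found in 54.1% of members, 39.9% of genes tested and 55.2% of all models. Of the members, 40.2% had 2 or 3 exon blocks, against 26.3% of genes tested, and 19.6% had 7 or more, against 38.2%. Models with 1 exon block made up 13.9% of members, 13.6% of genes tested and 22.8% of all models. The next 200 genes, of rank 201 to 400 in Tak-1, lay between, with a median exon length of 2035.5 bases and 4 exon blocks. Because longer transcripts gather more reads, the choice by CPM works in favour of long genes. Among the 200 highest per kb, chosen without that advantage, the median exon length was 1260.5 bases, on a scale that itself favours short genes. These comparisons across genes are descriptions and were not tested.

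**Figure D3:**
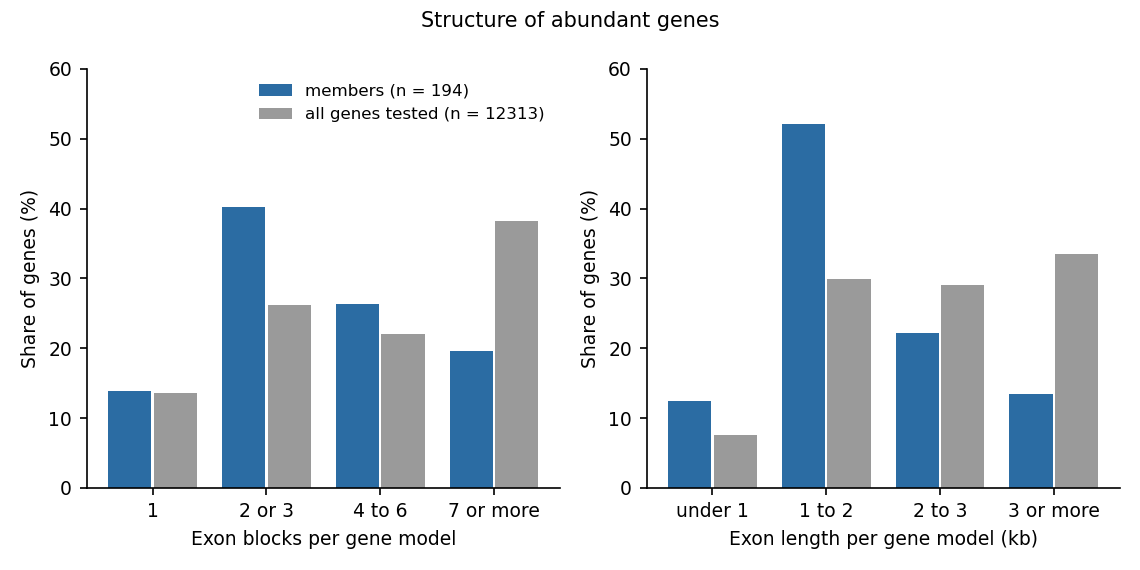
Share of genes (vertical axes, %) by number of exon blocks (left) and by exon length in kb (right), for the 194 members in blue and all 12313 genes tested in grey. Members are more often in the classes of 2 or 3 blocks (40.2%) and of 1 to 2 kb (52.1%) than genes tested (26.3% and 29.85%), and less often in the classes of 7 or more blocks and 3 kb or more.

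The members lay on 96 scaffolds. None was on the sequences of the male sex chromosome, which held only 31 of the 12313 genes tested. The genes of rank 201 to 400 had none there either. At most 10 members shared a scaffold, and 45 scaffolds held 1 each. A model on the opposite strand overlapped 7 of them (3.61%), against 5.57% of genes tested. Reads of such pairs may be mixed, since the strand setting of the counting is not given. Of 18524 pairs of neighbouring models in the table, 7 consisted of 2 members, and 4 of these 7 were alike in strand, number of exon blocks and exon length (within 1.5 times). Among all neighbouring pairs, 741 were alike in this way.

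The group with most members was on scaffold_199, where 5 lay within 41.8 kb, from 115615 to 157448, among 9 gene models. All 9 models have 2 exon blocks, and all but 1 are on the plus strand. How reads matching several copies were counted is not given, so levels of single models here are uncertain. The 5 members, of rank 10, 11, 31, 53 and 131, had a summed level of 11719 ± 806 CPM in wild type and 9991 ± 380 CPM in the mutant (SD, n = 3). The highest pair of them had nearly equal levels. Of these, rank 10 (131853 to 133502) had 3521, 3633 and 3893 CPM in wild type and 2702, 3043 and 2931 CPM in the mutant. Next to it in level, rank 11 (115615 to 116902) had 3504, 3623 and 3901 CPM in wild type and 2843, 3109 and 3148 CPM in the mutant. Both were lower in every mutant plant, and both were highest in Tak-1 replicate 3. For the genes of rank 31, 53 and 131 the genotypes overlapped.

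Of the 4 models of this stretch that are not members, 3 were higher in Mpbes1. The model from 134347 to 135905 was next to the gene of rank 10 on the same strand. It had 338, 291 and 513 CPM in wild type and 800.1, 882 and 987 CPM in the mutant, and went from rank 388 to 126. The model from 153529 to 154870 went from 252 ± 49.1 to 509 ± 34.6 CPM (SD, n = 3), and the weak model on the minus strand from 23.2 ± 6.37 to 70.5 ± 9.64 CPM. Each of these 3 was higher in every mutant plant. The fourth, from 149819 to 152095, had 478 ± 129 and 463 ± 23.3 CPM, with overlap, as for the members of rank 31, 53 and 131. The stretch was picked out after its values were seen.

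Counted at a limit chosen after the data were seen, 44 members (22.7%) lay within 50 kb of another member, in 19 groups. The matching share in other sets of genes was not counted, so no closeness particular to the members is read from this. On scaffold_57, the genes of rank 77 (867105 to 868589) and rank 47 (869894 to 871381) are neighbours of 2 exon blocks each on the plus strand. The former had 999.5, 1294 and 1303 CPM in wild type and 837, 864 and 779 CPM in the mutant. The latter had 1351, 1728 and 1655 CPM in wild type and 1092, 1099 and 964 CPM in the mutant. Both were lower in every mutant plant, and the first Tak-1 plant was the lowest of its group for both. In all 7 pairs of neighbouring members the log2 fold changes had the same sign, whether called or not. Those pairs on scaffold_199 share members, and the values of -0.05 for rank 131 and -0.06 for rank 7 were within their SE. The share of same signs over all neighbouring pairs was not counted, so nothing is read from these 7. Opposite signs occurred among members a little further apart. On scaffold_78, within 41.4 kb, the genes of rank 132 and 200 were both called, at log2 fold changes of -0.43 and 0.29. On scaffold_80, within 11.1 kb, the gene of rank 118 had an edgeR log2 fold change of -0.36 and that of rank 50, not called, one of 0.27. On scaffold_15, within 7.25 kb, the values were 0.14 for the gene of rank 30, not called, and -1.02 for that of rank 81.

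The members differed between genotypes in both directions, and the limit of 2-fold in their choice keeps these differences small. The fit was edgeR's quasi-likelihood test over all genes, with TMM scaling, and genes whose Benjamini-Hochberg adjusted p lay below 0.05 were called. The median log2 fold change, Mpbes1 over Tak-1, was -0.04 over the members and 0.01 over all genes tested. For the members it was -0.001 when library size alone was scaled, and its sign turned, to 0.007, without Tak-1 replicate 3. The quartiles of the members were -0.22 and 0.22, and 109 of 194 (56.2%) were within 0.25 of 0, against 53.3% of genes tested, which had no such limit. The SE of a member's log2 fold change had a median of 0.086. With TMM scaling 87 members were above 0 and 107 below. Scaled by library size only, they were 96 and 98.

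Called in either direction were 89 of the 194 members (45.9%), beside 40.4% of all genes tested. Higher were 42, beside a background of 19.3%, and lower were 47, beside 21.1%. The choice of members used this same contrast, so nothing is read from these shares. With library size only, the calls were 53 higher and 41 lower. That was 48.5% of members, beside 41.4% of all genes, of whose calls 55.0% were higher. The count rested on single libraries. It was 42 without the first Mpbes1 library, with 11 higher and 31 lower, and 46 without the second Mpbes1 library, with 10 higher and 36 lower. These were 21.6% and 23.7% of members, beside 31.8% and 31.9% of all genes in the same fits, so the members went from above to below the background. Without the second Tak-1 library it was 63, with 18 higher, or 32.5% of members beside 36.6% of all genes. In all 15 fits, those with another scaling, filter or tool, a replicate block or 1 library left out included, 39 members were called in the same direction, 9 higher and 30 lower. The matching share of all genes tested was not counted. Calls in every fit cannot exceed the 10 higher of a single fit above, so nothing is read from this split. By CPM alone, all 3 mutant plants were above all wild-type plants for 64 members and below them for 53, beside 30.9% and 22.9% of genes tested. Together these were 60.3% of the members, beside 53.8%, and the genotypes overlapped for 77.

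Among the members, more of the larger shifts were downward than upward. The 200 genes were ranked by their Tak-1 level, which favours genes lower in Mpbes1, and the 2-fold limit used the same contrast. These counts are therefore descriptions and were not tested. A log2 fold change over 0.5 was found in 1 member and one under -0.5 in 15, all of them called. Of the 12313 genes tested, 1295 were over 0.5 and 1791 under -0.5, of which 1164 and 1574 were called. The 6 genes left out for a change of 2-fold or more were all lower in Mpbes1. Among the 200 genes highest in Tak-1, before the limit, 1 was over 0.5 and 21 under -0.5. Among the 200 highest in Mpbes1 there were 8 and 12, and among the 200 highest over all 6 libraries 3 and 16. Of the 200 genes highest in Mpbes1, 3 were 2-fold or more higher and 2 lower. Of the 200 highest over all 6 libraries, 0 were 2-fold or more higher and 4 lower, with 49 called higher and 46 lower. The split between rises and falls thus changed with the libraries used for the ranking, and nothing is read from that of the members.

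**Figure D4:**
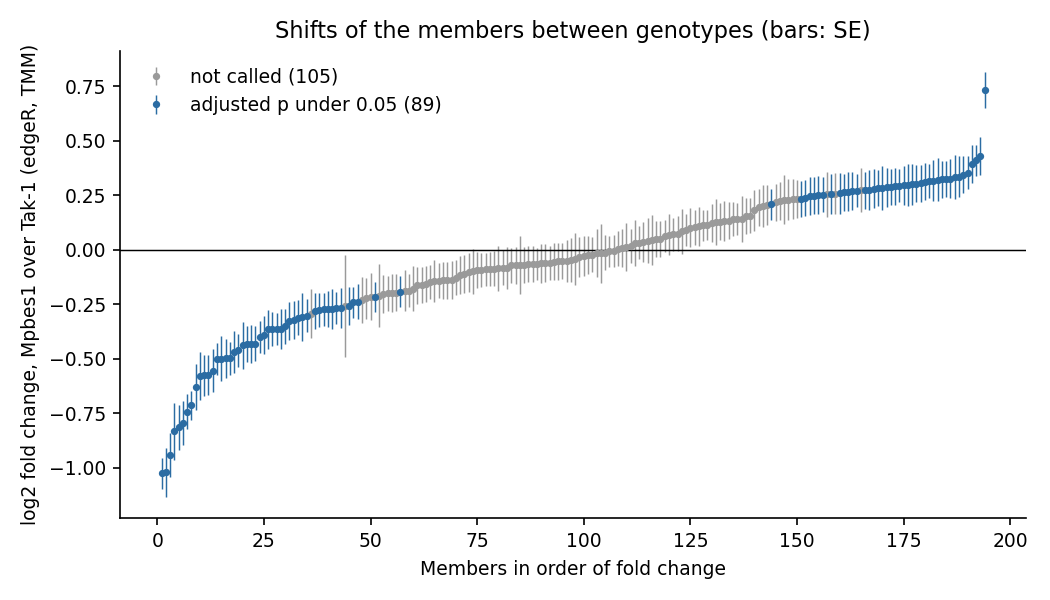
edgeR log2 fold change of each member, Mpbes1 over Tak-1 with TMM scaling (vertical axis), with members in order of that value (horizontal axis), bars for the SE, and blue points for the 89 called members. The tail below 0 reaches -1.03, while above 0 all values but 1, at 0.73, are under 0.5.

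The largest rise was that of Mapoly0133s0032.v3.1, of rank 159, on the plus strand of scaffold_133 from 295558 to 297749, with 5 exon blocks and 913 bases of exon. Its levels were 787, 677 and 723 CPM in wild type and 1294, 1187 and 1269 CPM in the mutant. The groups lay far apart, its log2 fold change was 0.73 ± 0.08 (SE), and it climbed to rank 67. Second came the gene of rank 178 (scaffold_183, 125324 to 126741, 1 exon block) had 732, 663 and 669 CPM in wild type and 1067, 919.6 and 880.2 CPM in the mutant. The rank-189 gene (scaffold_1, 5765824 to 5768798, 1 exon block) had 653, 648 and 676 CPM in wild type and 900.1, 875 and 933 CPM in the mutant. Both had every mutant plant above every wild-type plant, with log2 fold changes of 0.43 ± 0.09 and 0.41 ± 0.07 (SE). Next were the genes of rank 95 (scaffold_60, 1215752 to 1218390) and rank 69 (scaffold_68, 471337 to 472862), at 0.39 ± 0.09 and 0.35 ± 0.08 (SE). These 5 kept their calls in all 15 fits.

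The largest fall was that of Mapoly0174s0014.v3.1, of rank 163, on the minus strand of scaffold_174 from 192330 to 197685, with 13 exon blocks and 3531 bases of exon. Its levels were 755, 704 and 714 CPM in wild type and 367, 370.3 and 362 CPM in the mutant. The plants of a genotype lay close together, the log2 fold change was -1.03 ± 0.07 (SE), and it dropped to rank 405. Next was the gene of rank 81 (scaffold_15, 458361 to 460781, 4 exon blocks), which had 978, 1330.2 and 1193 CPM in wild type and 589, 628 and 559.5 CPM in the mutant. Its log2 fold change was -1.02 ± 0.11 (SE), with a wider spread in Tak-1. These 2 stayed on the list because their CPM ratios of 0.506 and 0.507, taken on column totals, were just above the limit, while TMM scaling puts them just past 2-fold.

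After the gene of rank 9, at -0.94 ± 0.10 (SE), came 2 others. The gene of rank 125 (scaffold_134, 416646 to 419837) is a single exon block of 3192 bases. It had 754, 859 and 961 CPM in wild type and 439, 462 and 588 CPM in the mutant, so that the groups were apart but the plants of both genotypes were spread. The rank-21 gene (scaffold_112, 558627 to 563178, 3 exon blocks) had 2200.2, 2689 and 2785 CPM in wild type and 1509, 1397 and 1592 CPM in the mutant. The log2 fold changes were -0.83 ± 0.13 and -0.82 ± 0.10 (SE). All 5 of the largest falls were called in all 15 fits.

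By structure, 3 of the 27 members with 1 exon block were called higher and 6 lower, beside 307 and 434 of 1674 genes tested with 1 block. With 2 or 3 blocks there were 15 and 19 of 78 members, beside 665 and 767 of 3233 genes. With 4 to 6 blocks there were 19 and 11 of 51 members, beside 505 and 589 of 2707 genes. With 7 or more blocks there were 5 and 11 of 38 members, beside 903 and 807 of 4699 genes. In the last 2 classes the balance of members was opposite to that of the genes tested, a difference that was not tested. These classes were counted only in the fit of all 6 libraries with TMM scaling. Calls of higher members rested on single libraries, as above. The members called higher had a median exon length of 1429 bases and those called lower one of 1908 bases. Across the 194 members the Spearman correlation of log2 fold change with exon length was -0.17, and with the Tak-1 level it was -0.30. Over all genes tested these were -0.06 and -0.14. The correlations with level use the Tak-1 libraries on both axes, and genes are not independent replicates, so all are descriptions.

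The calls also differed along the ranking, beside 19.3% of all genes tested called higher and 21.1% lower. The ranking and the calls both use the Tak-1 levels, so these counts are descriptions. Of the 10 members of rank 1 to 10, 1 was called higher and 5 lower. Of the 49 members of rank 51 to 100, 9 were called higher and 16 lower. The 37 members of rank 11 to 50 took 8.35% ± 0.33 of wild-type counts and 7.80% ± 0.12 of mutant counts (SD, n = 3), and 2 were called higher and 9 lower. The 98 members of rank 101 to 200 took 7.64% ± 0.27 in Tak-1 and 8.18% ± 0.28 in Mpbes1, and 30 were called higher and 17 lower. Calls of higher members rested on single libraries, with 10 or 11 in place of 42 over the whole list without the second or first Mpbes1 library. The genotypes were apart for rank 11 to 50, from 8.10% to 8.73% in Tak-1 and from 7.66% to 7.90% in Mpbes1. They overlapped for rank 101 to 200, where the highest Tak-1 library, at 7.903%, was above the lowest Mpbes1 library, at 7.872%. Ranked by the Mpbes1 mean instead, the first 10 genes took 5.59% ± 0.18 in Tak-1 and 5.36% ± 0.12 in Mpbes1, ranks 11 to 50 took 8.65% ± 0.24 and 8.19% ± 0.12, and ranks 101 to 200 took 7.81% ± 0.22 and 8.18% ± 0.20 (SD, n = 3). The signs were those of the members in these bands, while that of ranks 51 to 100 turned, from 5.96% and 5.83% for the members to 5.805% and 6.01%. These sums were not tested.

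The order of the members changed more between genotypes than between plants of 1 genotype. Between the genotype means the median member moved by 22.5 ranks, 105 members up, 85 down and 4 not at all. Comparing single libraries, the median move was 5 to 11 ranks for the 6 pairs within a genotype and 14 to 31.5 ranks for the 9 pairs between genotypes, ranges that did not overlap. The contrast was weakest at the top. For rank 1 to 10 the medians were 0 to 1.5 ranks within and 1 to 2.5 between genotypes, and for rank 101 to 200 they were 8 to 17 and 23.5 to 44.0. Of the members, 174 were also in the first 200 of Mpbes1, and 161 were in the first 200 of each of the 6 libraries. Neighbouring genes in the ranking have close levels, most of all near rank 200, where ranks 199 to 202 in Tak-1 spanned 636.3 to 635.5 CPM.

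The members that climbed most were those of the 3 largest rises, by 92, 64 and 62 ranks for the genes of rank 159, 189 and 178. Those that dropped most were the genes of rank 163, by 242 ranks, rank 193 and rank 125. Rank 193 (scaffold_55, 1123056 to 1126397, 5 exon blocks) had 651, 662 and 641 CPM in wild type and 399.8, 406 and 421 CPM in the mutant, and went to rank 359. Its plants were close together in both genotypes.

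**Figure D5:**
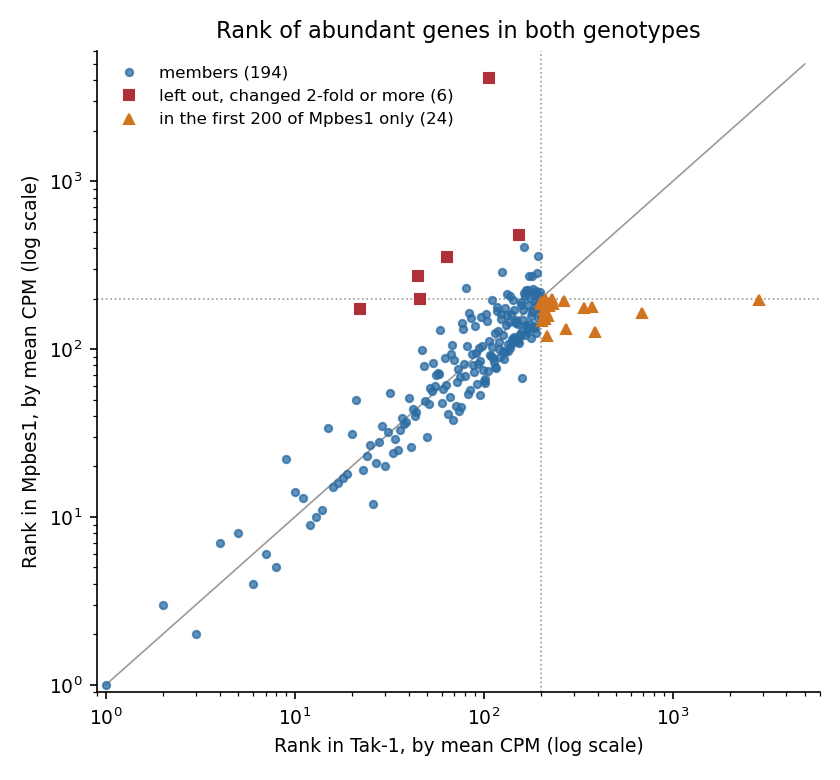
Rank by mean CPM in Tak-1 (horizontal axis) and in Mpbes1 (vertical axis), both on log scales, with blue points for the 194 members, red squares for the 6 genes left out and orange triangles for the 24 genes found only in the first 200 of Mpbes1. Members follow the line of equal rank, with 1 gene left out at rank 4112 in Mpbes1 and 1 newcomer from rank 2861 in Tak-1.

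The 6 genes left out for their change took 0.876% ± 0.062 of wild-type counts and 0.266% ± 0.007 of mutant counts (SD, n = 3). The gene of rank 106, on scaffold_137 from 95890 to 98109, went from 975.5 ± 221 to 56.6 ± 11.6 CPM and to rank 4112, a 17.2-fold difference. The others differed 2.42-fold to 3.51-fold. The genes of rank 64 and 45 are neighbours on the plus strand of scaffold_23, from 1623981 to 1625298 and from 1628760 to 1630045, and were lower by 3.16-fold and 3.17-fold. The left-out gene nearest the limit, of rank 46 on scaffold_202 from 125934 to 127819, went from 1583 ± 336 to 655.5 ± 17.4 CPM. Of these 6, those of rank 22 and 46 were still in the first 200 of Mpbes1, at rank 174 and 200. The first 200 of Mpbes1 also held 24 genes from outside the first 200 of Tak-1, 15 of them called higher and 3 changed 2-fold or more. Most came from just below rank 200. The exception furthest down lies on scaffold_37 from 507788 to 511034 and went from 80.3 ± 8.45 CPM and rank 2861 to 682 ± 65.1 CPM and rank 195, 8.49-fold higher.

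Between plants of a genotype, the median coefficient of variation of CPM over the 3 plants was 6.83% in Tak-1 and 4.96% in Mpbes1, against 9.06% and 6.53% for tested genes outside the first 200. For the genes of rank 201 to 400 it was 7.41% and 4.75%, above the members in Tak-1 and below them in Mpbes1. Counting error alone would give about 0.89% and 0.83% for the members, and 5.08% and 4.70% for those outside the first 200. The part of depth in the contrast was not tested. The value in Tak-1 was 4.74% without its first library, and that in Mpbes1 was 2.87% without its replicate 3. With a plant left out the coefficient rests on fewer plants, which by itself tends to lower its median. It was lower whichever plant was left out, in both genotypes. The first and second mutant libraries were the most alike pair within a genotype. The second Mpbes1 library was the highest of its group for 103 members and replicate 3 the lowest for 101. In Tak-1 the second library was lowest for 88 members. The part of these differences between libraries in the counts of calls above was not tested.

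The steadiest member over all 6 libraries was the gene of rank 75, on scaffold_13 from 2278497 to 2280449 with 4 exon blocks. It had 1195, 1228 and 1233 CPM in wild type and 1218, 1254 and 1278 CPM in the mutant, a coefficient of variation of 2.34%. The genes of rank 44 (scaffold_29, 1288124 to 1291539) and rank 12 (scaffold_53, 618445 to 620947) followed at 2.96% and 3.61%. The largest values over all 6 libraries belonged to 3 members already described, of rank 81, 163 and 9, at 38.1%, 36.1% and 35.3%, which differ between the genotypes.

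Within Tak-1, 4 members varied by over 20% between plants, and in Mpbes1 none did. Of the 200 genes of rank 201 to 400, 7 did so in Tak-1 and 2 in Mpbes1. Among the 12113 tested genes outside the first 200, the counts were 1883 and 1508. The 4 members were picked out after their values were seen. The rank-164 gene (scaffold_206, 36144 to 39113) had 862, 467 and 843 CPM in wild type and 608, 667 and 602 CPM in the mutant. Rank 183 (scaffold_66, 604681 to 608808) had 577, 869 and 589.8 CPM in wild type and 609, 634.5 and 567 CPM in the mutant. The rank-171 gene (scaffold_134, 276718 to 279619) had 880.2, 614 and 602 CPM in wild type and 752.5, 704 and 677 CPM in the mutant. For each of these, 1 Tak-1 plant stood apart, the second, the second and the first, and the mutant plants lay between the wild-type values or at their lower edge. The fourth, the long gene of rank 114, had 1124, 767.5 and 867 CPM in Tak-1.

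Lists chosen from 2 Tak-1 libraries could be read in the remaining library, which the choice did not use. The 200 genes highest in the chosen pair took 28.6% of its counts and 28.3% of those of the first plant, 28.8% and 27.9% for the second plant, and 28.15% and 29.1% for replicate 3. In the plant left out, 0 of the 200 genes differed 2-fold or more from the pair, and in the mean of the Mpbes1 plants 7 did, whichever plant was left out. The median absolute log2 difference from the pair was 0.08 to 0.12 in the plant left out and 0.22 to 0.26 in Mpbes1. The abundant genes thus differed more between the genotypes than between a wild-type plant and 2 others, in each of the 3 ways of leaving out a plant. The same was not computed for other genes. In the fit of all 6 libraries the median absolute log2 fold change was 0.223 for the members, limited to 2-fold, and 0.228 over all genes tested. Nothing particular to abundant genes is read from this.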

How the data were processed

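The deposited file is 1 table of unnormalized read counts, laid out as featureCounts writes it (per the file headers). STAR 2.5.2b, featureCounts 1.5.1 and edgeR are the tools listed, per the submitters' processing notes. Libraries came from thallus RNA and a stranded mRNA kit, per the labels' protocols. No source used here gives the genome build, strand setting or handling of multiply aligned reads. Coordinates and exon lengths are those of the table, counted from 1. CPM was computed on column totals.

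Genotypes were compared over all 6 libraries with edgeR 4.0.16 (R 4.3.3; robust quasi-likelihood test, TMM, filterByExpr, genotype only), adjusted over all 12313 genes tested. SEs were derived from the F statistic. DESeq2 1.42.0 and limma-voom (limma 3.58.1) were alternatives. The edgeR fit was tried on simulated counts with a common spread for all genes, unlike these data. The pass mark was lowered after a first run missed it at 1.5-fold changes, so its outcome is not used here. Named genes are the 10 most abundant members, the 5 largest called rises and falls without overlap, the 3 members at each end of rank change and of the coefficient of variation, and the genes at the limits. The members and lists were chosen with earlier results of these data known. The lists ranked by Mpbes1, the wild-type plants left out of the choice, the members varying by over 20%, the 50 kb groups, the 0.5 limit, and the rank and exon classes were chosen after seeing the data.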

Additional observations from a re-analysis of the deposited data

How the results depend on the processing

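Of the 17 named members that were called, none changed direction in the 14 alternative fits and 13 kept their call; those of rank 4, 5, 6 and 11 lost it in some. The count of members called was 89, and 42 to 93 with 1 library left out. Of these, 10 to 49 were higher (42 in the full data) and 31 to 49 lower (47). With DESeq2 the count was 105, or 54.1% of members beside 36.4% of all genes. All genes called were 4977, and 3974 to 4808 with 1 library left out. The median log2 fold change of the members was -0.001 by library size only and -0.072 to 0.007 with 1 library left out. Ranked by CPM per kb, the members' share was 26.1% in Tak-1 and 26.0% in Mpbes1 and their median exon length 1255.0 bases. A limit of 1.5-fold also gave shares of 26.1% and 26.0%. From the top 100 there were 96 members, with shares of 20.0% and 18.8% and a median rank move of 8.5, and from the top 400 there were 381, with 36.6%, 36.2% and 31.0, by construction of the longer list. With 1 library left out the share in Tak-1 was 26.9% to 27.8% when members were chosen again. The coefficient of variation was 7.59% in Tak-1 with TMM scaling, and with 1 plant left out 4.74% to 6.66% in Tak-1 and 2.87% to 4.52% in Mpbes1. Leaving out a plant tends by itself to lower this median, since fewer plants remain. The causes of the shifts in this section were otherwise not tested. Same-numbered libraries deviated together only in part (correlations of 0.17, -0.03 and 0.14, with 4 of 6 libraries closest to their own number), so the numbers were not taken as pairs; the replicate block gave 86 members called, 40 higher and 46 lower, and 5246 genes in all. With 4257 or more counts per member in every library, counting error is small beside the spread between plants.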
